A study of Mus musculus with 16 samples.

Results

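Prepl and 8 related mouse genes were followed through 16 brain RNA libraries: Prepl itself, its paralogue Prep, the peptidases Dpp8, Dpp9, Tpp2 and Apeh, and the depalmitoylating thioesterases Lypla1, Lypla2 and Ppt1. The genes were taken by symbol from the count tables, so 9 of 43472 gene rows are described, and all 9 were found. The libraries fall into 4 groups of 4: Prepl knockout brains, the wild-type (WT) brains that serve as their controls, PWS-IC deleted brains, and a separate set of WT brains for the deletion. PWS-IC is the imprinting centre that switches on the genes read from the paternal copy of the Prader-Willi region. The labels give the tissue as brain and the genotype of each library; they name no age, strain, brain region, zygosity or way in which either allele was made, and do not say whether each library is a separate animal. P-values therefore measure the spread between these libraries. Each mutant was compared with its own WT group.

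These proteins are serine hydrolases, enzymes that cut peptides or remove acyl groups through a reactive serine. Prepl resembles prolyl oligopeptidase, which Prep encodes and which cleaves short peptides after proline, but Prepl has been described as a thioesterase and esterase rather than a peptidase; in patients its loss gives rise to a congenital myasthenic syndrome. Lypla1, Lypla2 and Ppt1 encode enzymes that take palmitate off proteins, the first pair in the cytosol and Ppt1 in the lysosome. The comparison within the Prepl model asks whether the mRNA of a relative is higher when Prepl is lost.

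The shared chemistry shows in the coding sequence around the reactive serine, printed here because it is what these genes have in common beyond their names. In Prep, Dpp8, Dpp9, Apeh, Lypla1, Lypla2 and Ppt1 the codon sits in the pattern glycine, any residue, serine, any residue, glycine. A search of the translated principal transcripts of GENCODE M21 (GRCm38) found this pattern at 1 place in each, except for Prep and Apeh, which hold 2 and whose known catalytic serine is the later one. Tpp2 is a subtilisin-type protease with a different pattern around its serine, and Prepl holds neither pattern. For Prepl the codon is the one that a local protein alignment placed opposite the catalytic serine of Prep. Each window runs 5′ to 3′ on the coding strand, 21 bases long, with the serine codon in capitals.
Prepl: agcgctttcAGTgctggaggt
Prep: aacggaggcTCCaacggcggc
Dpp8: cacggctggTCCtatggtggc
Dpp9: catggctggTCCtacggcggc
Tpp2: aatgggacaTCAatgtcttcc
Apeh: atgggtggtTCCcatggtggg
Lypla1: ggaggatttTCTcagggaggc
Lypla2: ggtggcttcTCGcagggtggg
Ppt1: attggcttcTCCcagggaggc

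The Prepl window lies on the minus strand at chr17:85068945-85068965 and its serine is codon 470 of 638 in the transcript used. The serine of Prep is codon 554 of 710, in a plus-strand window at chr10:45153156-45153176. The windows of this pair differ at 13 of 21 bases, whereas those of Dpp8 and Dpp9 differ at 3, those of Lypla1 and Lypla2 at 6, and those of Lypla2 and Ppt1 at 5. The Lypla1 and Lypla2 windows are each split by an intron. Over their whole annotated transcripts, none of the 36 pairs among the 9 genes shares a run of 30 bases.

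The libraries came from a Lexogen QuantSeq kit, which reads the poly(A) end of a transcript, so a count does not grow with transcript length. Reads in genes numbered 3477624 to 5852716 per library. Levels are given as CPM, in which each deposited count is scaled by its library's reads in genes. A read near an overlap with another gene may be uncertain, since the strand setting of the counting is not given in the sources used here: exons of Prepl share 601 bases with Slc3a1, and those of Ppt1 share 129 bases with Cap1, each on the opposite strand. The markers of brain tissue were present: the 4 neuronal markers (Snap25, Syt1, Rbfox3, Stmn2) summed to between 2996 and 3608 CPM in every library. Of the oligodendrocyte markers, Mbp and Mag were read in every library and Mog was at 0 in both PWS-IC groups. In RNA from brain tissue, fewer cells of a type and less RNA per cell cannot be told apart. All 4 Prepl knockout libraries were from males and their WT libraries from 3 females and 1 male (replicate 4), read from Xist and Y-linked genes, so sex and genotype are partly confounded there; each PWS-IC group held 2 of each sex.

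Prepl reads were nearly gone in the knockout brain. They come from the poly(A) end, so the rest of the transcript was not measured. Prepl had 1.17, 2.18, 1.83 and 1.39 CPM in Prepl knockout libraries 1 to 4, against 36.5, 33.6, 33.8 and 35.2 CPM in the WT libraries. The groups did not overlap, and each knockout library still held 6 to 11 reads of Prepl, against 165 to 196 in each WT library. Prepl averaged 1.64 ± 0.453 CPM in knockouts and 34.8 ± 1.35 CPM in WT (SD, n = 4 each). The change was -4.34 ± 0.191 on the log2 scale (SE), with an adjusted p of 9.44e-14 in edgeR's quasi-likelihood test. Every adjusted p given here is adjusted over all genes tested by the Benjamini-Hochberg method, with a threshold of 0.05. The spread of the 4 WT libraries, 3.87% of their mean, was below the 7.35% that counting alone gives at this depth. The gene spans 26772 bases on the minus strand of chromosome 17 (GRCm38, 85063470 to 85090241).

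Slc3a1, which makes a cystine transporter subunit and whose end overlaps that of Prepl, did not pass the filter on low counts: it had 0 reads in each knockout library and 0 or 1 read in each WT library. Camkmt, a calmodulin methyltransferase gene that starts 310 bases from Prepl and runs the other way, had 2.73, 3.17, 3.85 and 3.38 CPM in knockouts, against 1.99, 3.44, 3.10 and 3.24 CPM in WT. The groups overlapped and Camkmt was not called, at 0.18 ± 0.299 (SE, log2; edgeR's quasi-likelihood test, adjusted p = 0.905). The stretch around the Prepl start, which reaches towards Camkmt, is shown because Prepl reads were nearly gone while Camkmt was still read. The RefSeq window of 250 bases before to 50 after the Prepl start, at chr17:85090225-85090524 on the minus strand of GRCm38.p6, shares 149 bases with the corresponding window of Camkmt; 7 of the 9 genes had such a window.
Prepl window: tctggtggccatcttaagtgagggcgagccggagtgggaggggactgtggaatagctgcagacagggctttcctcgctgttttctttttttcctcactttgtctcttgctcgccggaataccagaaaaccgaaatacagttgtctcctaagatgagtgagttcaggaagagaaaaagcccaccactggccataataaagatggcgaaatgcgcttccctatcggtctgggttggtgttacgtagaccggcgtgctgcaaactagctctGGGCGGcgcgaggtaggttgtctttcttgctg
Capitals mark 1 match to the GC box letters GGGCGG, searched on both strands and overlapping no other motif searched. The match lies in the 50 bases after the RefSeq start. That start is not the GENCODE one at 85090241, from which the 310 bases to Camkmt were counted. Of 32851 such windows, 35.7% hold the GC box letters. The letters TATAAA and CCAAT were not found in this window on either strand, against 13.6% and 37.4% of all windows.

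**Figure D1:**
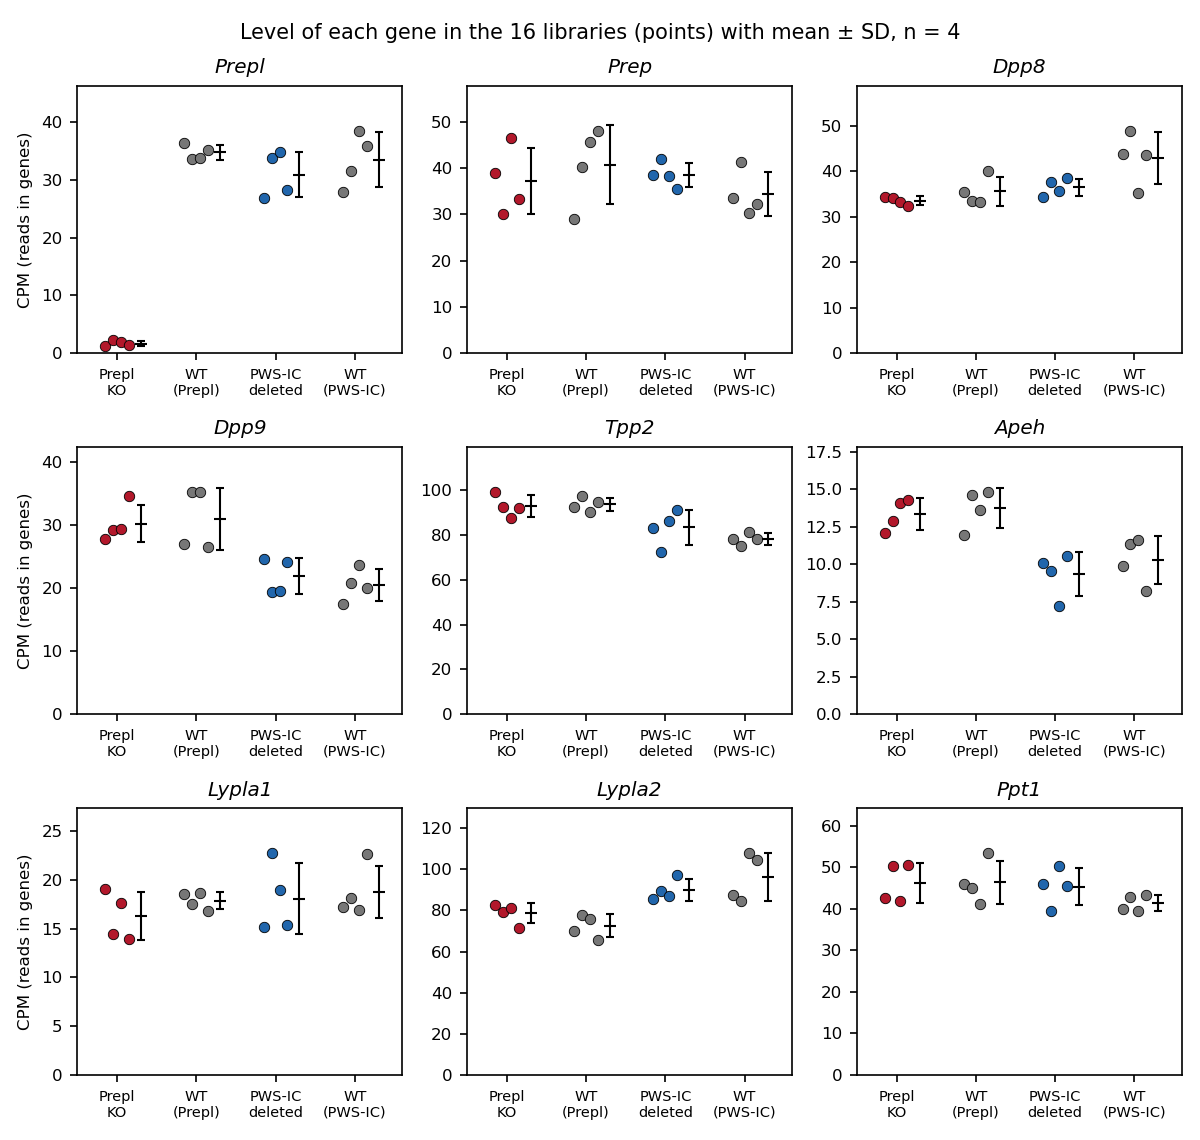
Level of each of the 9 genes in CPM (vertical axes, each starting at 0) in every library (points) of Prepl knockout, its WT, PWS-IC deleted and its WT brain, with mean ± SD over 4 libraries beside the points. Prepl sits at 1.17 to 2.18 CPM in the knockouts and at 26.9 to 38.6 CPM in the other 12 libraries, while Dpp9 and Apeh are higher in both groups of the Prepl model than in both groups of the PWS-IC model.

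None of the 8 relatives was called in the Prepl knockout. Of the 9 genes 1 passed, Prepl itself, the targeted gene, against 0.262% of all 13722 genes tested. By edgeR's quasi-likelihood test 0 of the 8 others had an unadjusted p under 0.05, against 9.43% of all genes, and DESeq2 and limma voom called 0 of them as well. Their log2 fold changes lay between -0.10 and 0.15 with a median of -0.01, against a median of 0.00 over all genes. The 9 genes gave 1 without overlap between the groups, again Prepl, against 5.69% of all genes tested.

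Prep, the closest relative by family, had 39.0, 30.2, 46.6 and 33.4 CPM in Prepl knockouts, against 29.0, 40.3, 45.7 and 48.2 CPM in WT. The groups covered the same range, and the 4 libraries of each group spread by 19.3% and 21.0% of the mean. The log2 fold change of Prep was -0.10 ± 0.139 (SE; edgeR's quasi-likelihood test, adjusted p = 0.882). The 95% interval on the fold ran from 0.765 to 1.14, so a rise of Prep mRNA beyond 1.14 times the WT level lies outside it.

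Among the other peptidases, Dpp8 and Dpp9 encode cytosolic dipeptidyl peptidases that take a dipeptide ending in proline off an N-terminus, and that restrain the Nlrp1 inflammasome. Dpp8 had 34.5, 34.1, 33.2 and 32.4 CPM in knockouts, against 35.6, 33.6, 33.3 and 40.2 CPM in WT. Dpp9 had 27.9, 29.2, 29.3 and 34.5 CPM in knockouts, against 27.0, 35.3, 35.2 and 26.5 CPM in WT. Both pairs of groups overlapped. The fold changes had 95% intervals of 0.831 to 1.12 for Dpp8 and 0.837 to 1.18 for Dpp9. Tpp2, a very large cytosolic peptidase that removes tripeptides from products of the proteasome, had 99.5, 92.7, 87.5 and 92.3 CPM in knockouts, against 92.4, 97.5, 90.5 and 94.7 CPM in WT. Its SE of 0.0735 was the smallest of the 9 genes, and its interval ran from 0.915 to 1.13. Apeh, which releases acylated amino acids from N-termini, had 12.1, 12.9, 14.1 and 14.3 CPM in knockouts, against 11.9, 14.6, 13.6 and 14.9 CPM in WT. With 54 to 85 reads per library it had a wider interval, 0.796 to 1.24.

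Of the thioesterases, Lypla2 stood nearest to a difference. It had 82.6, 79.2, 81.0 and 71.5 CPM in Prepl knockouts, against 70.1, 77.9, 76.0 and 65.7 CPM in WT. The first 3 knockout libraries were above every WT library and replicate 4 was not, so the groups overlapped. The log2 fold change of Lypla2 was 0.15 ± 0.0828 (SE; edgeR's quasi-likelihood test, unadjusted p = 0.0774, adjusted p = 0.580), with a 95% interval on the fold of 0.988 to 1.25. Its paralogue Lypla1 had 19.1, 14.5, 17.6 and 13.9 CPM in knockouts, against 18.6, 17.6, 18.6 and 16.8 CPM in WT, and an interval of 0.760 to 1.15. Ppt1, whose loss causes an infantile form of neuronal ceroid lipofuscinosis, had 42.5, 50.2, 41.8 and 50.4 CPM in knockouts, against 46.0, 45.0, 41.2 and 53.5 CPM in WT, and an interval of 0.879 to 1.19.

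Over the 8 relatives, the highest upper bound of a 95% interval was 1.25 times the WT level, for Lypla2, and the highest bound lay between 1.24 and 1.30 when any 1 library was left out. With sex as a term, which rests on the single male WT library, none was called either. The highest bound was then 1.54, for Dpp9, and the interval of Lypla2 ran from 1.01 to 1.48 (edgeR's quasi-likelihood test, unadjusted p = 0.0418, adjusted p = 0.999). In sum over the 8 genes the level was 342.7 to 357.0 CPM in knockouts and 330.4 to 361.7 CPM in WT. The sum averaged 348 ± 6.95 CPM in knockouts and 352 ± 14.6 CPM in WT (SD, n = 4 each). With Prepl added, the totals were 350.1 ± 6.72 CPM in knockouts and 386 ± 13.5 CPM in WT, and Prepl made up 0.471% ± 0.134 of that total in knockouts and 9.01% ± 0.640 in WT.

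**Figure D2:**
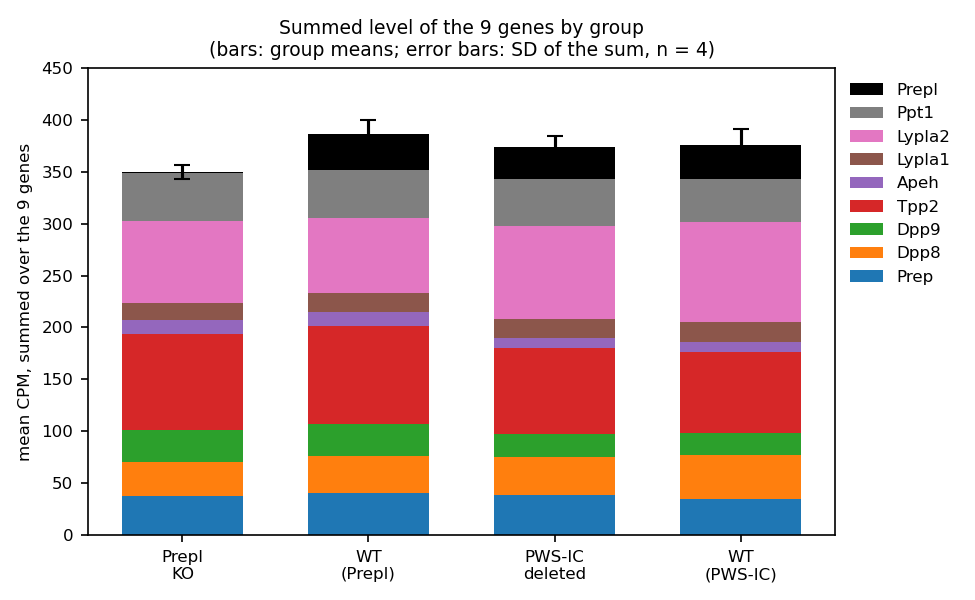
Mean CPM of the 9 genes stacked by group (vertical axis from 0), with error bars for the SD of the sum over 4 libraries. The knockout total of 350.1 CPM stands below the 386 CPM of its WT, and the black Prepl segment is nearly absent in the knockout bar.

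In the PWS-IC deleted brain none of the 9 genes was called, against 4.52% of the 13636 genes tested. By edgeR's quasi-likelihood test 0 of the 9 had an unadjusted p under 0.05, against 18.2% of all genes, and DESeq2 and limma voom called 0. All 9 overlapped between the groups, where 11.8% of genes did not. Their log2 fold changes lay between -0.23 and 0.17 with a median of -0.05, against -0.01 over all genes tested.

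Prepl had 26.9, 33.7, 34.8 and 28.3 CPM in PWS-IC deleted libraries 1 to 4, against 27.9, 31.6, 38.6 and 36.0 CPM in their WT. The levels covered nearly the same range. Its 95% interval on the fold ran from 0.764 to 1.12 (log2 -0.11 ± 0.133 SE; edgeR's quasi-likelihood test, adjusted p = 0.727). Prep had 38.5, 41.9, 38.2 and 35.5 CPM in deleted brains, against 33.5, 41.5, 30.4 and 32.4 CPM in WT, and had the highest upper bound of the 8 relatives, at 1.35 times WT. Dpp8 had 34.4, 37.6, 35.7 and 38.5 CPM in deleted brains, against 43.9, 49.0, 35.3 and 43.6 CPM in WT. WT replicates 1, 2 and 4 were above all deleted libraries and WT replicate 3 was not. Dpp8 had the smallest p of the 9 (log2 -0.23 ± 0.123 SE; edgeR's quasi-likelihood test, unadjusted p = 0.0815, adjusted p = 0.350), with an interval of 0.715 to 1.02.

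The remaining 6 genes had overlapping groups. Dpp9 had 24.5, 19.4, 19.6 and 24.2 CPM in deleted brains, against 17.4, 20.8, 23.7 and 19.99 CPM in WT. Tpp2 had 83.2, 72.5, 86.6 and 91.4 CPM in deleted brains, against 78.1, 75.0, 81.4 and 78.4 CPM in WT. Apeh had 10.1, 9.57, 7.19 and 10.5 CPM in deleted brains, against 9.91, 11.4, 11.6 and 8.19 CPM in WT. In none of these 3 peptidases were the deleted libraries all on 1 side of the WT ones. Lypla1 had 15.2, 22.8, 19.0 and 15.4 CPM in deleted brains, against 17.3, 18.2, 16.9 and 22.7 CPM in WT. Lypla2 had 85.7, 89.6, 87.1 and 97.3 CPM in deleted brains, against 87.7, 84.4, 108.1 and 104.5 CPM in WT. Ppt1 had 46.0, 39.4, 50.3 and 45.4 CPM in deleted brains, against 40.0, 42.8, 39.5 and 43.4 CPM in WT. Deleted replicate 2 was the lowest library for Ppt1 and the highest for Lypla1. The widest interval of the 9 was that of Apeh, 0.686 to 1.24, on 25 to 61 reads per deleted library. Reads matching no gene made up 17.7% to 20.1% of all tabled reads in the deleted libraries and 11.4% to 13.7% in their WT. Reads in genes made up 38.1% to 39.4% in the deleted libraries and 41.8% to 46.4% in their WT. The part of these differences in the values above was not tested.

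The effects of the 2 mutants differed for Prepl, at -4.24 ± 0.239 (SE, log2; Prepl knockout over WT minus PWS-IC deleted over WT; edgeR's quasi-likelihood test over all 16 libraries, adjusted p = 4.79e-14). It was the 1 gene of the 9 called, against 0.778% of 14392 genes tested. Of the 8 relatives Lypla2 had the largest positive difference, 0.24 ± 0.124, and Prep the largest negative one, -0.27 ± 0.204; neither was called (edgeR's quasi-likelihood test, adjusted p = 0.478 for Lypla2 and 0.660 for Prep).

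**Figure D3:**
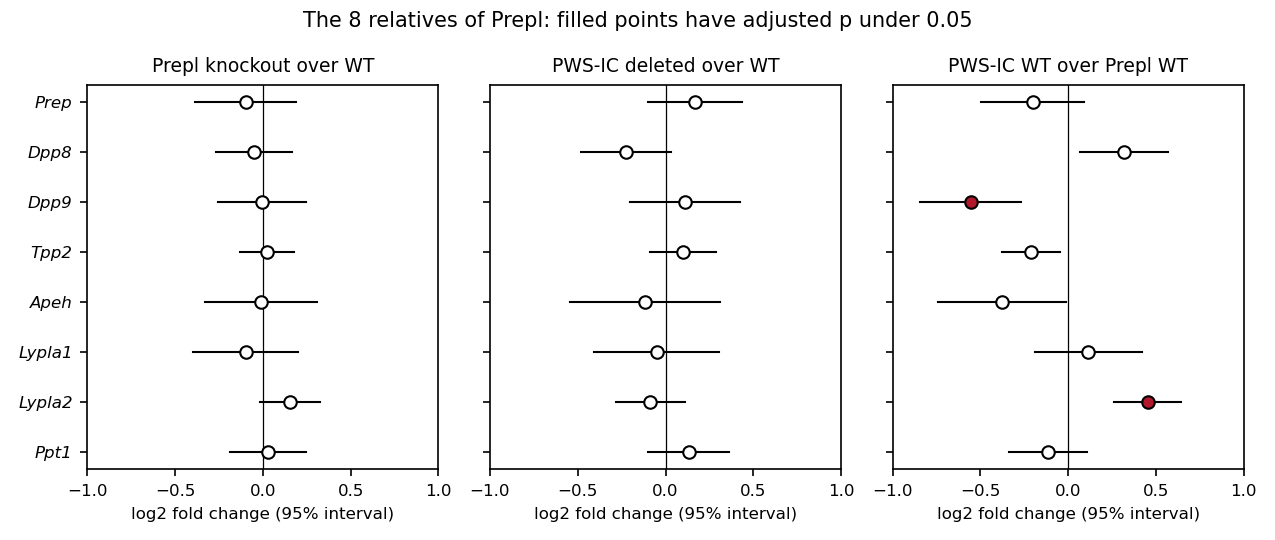
Log2 fold change (points) with 95% interval (bars) of the 8 relatives of Prepl in the Prepl knockout over its WT, the PWS-IC deletion over its WT, and the PWS-IC WT over the Prepl WT; filled points have an adjusted p under 0.05. No point is filled in either mutant panel, and Dpp9 and Lypla2 are filled in the comparison of the WT groups; Prepl in its knockout, at -4.34, lies outside the axis and is not drawn.

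For 3 of the 9 genes, Dpp9, Apeh and Lypla2, the 8 libraries of the Prepl model did not overlap with the 8 of the PWS-IC model, against 8.83% of 14392 genes. Dpp9 averaged 30.2 ± 2.96 CPM in Prepl knockouts and 31.0 ± 4.93 CPM in their WT, against 21.9 ± 2.82 CPM in PWS-IC deleted brains and 20.5 ± 2.57 CPM in their WT (SD, n = 4 each). All 8 libraries of the Prepl model were above all 8 of the PWS-IC model. Apeh showed the same split between the models, at 13.3 ± 1.05 CPM in Prepl knockouts and 13.8 ± 1.33 CPM in their WT, against 9.35 ± 1.49 CPM in PWS-IC deleted brains and 10.3 ± 1.59 CPM in their WT. Lypla2 ran the other way, at 78.6 ± 4.93 CPM in Prepl knockouts and 72.4 ± 5.57 CPM in their WT, against 89.9 ± 5.19 CPM in PWS-IC deleted brains and 96.2 ± 11.9 CPM in their WT. For Prep, Dpp8, Tpp2, Lypla1 and Ppt1 every neighbouring pair in the order of the 4 group means overlapped, and their highest and lowest group means differed by 1.12 to 1.28 times.

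A comparison of the WT groups, added after these levels had been seen, called 2 of the 9 genes, against 23.8% of 13756 genes tested, so their share was near that of all genes. Without overlap were 4 of the 9, Dpp9, Tpp2, Apeh and Lypla2, against 24.7%. Dpp9 was lower in the PWS-IC WT than in the Prepl WT, at -0.56 ± 0.139 (SE, log2; edgeR's quasi-likelihood test, adjusted p = 0.00553). Lypla2 was higher there, at 0.45 ± 0.0924 (edgeR adjusted p = 0.00105). Apeh was not called, at -0.38 ± 0.175 (edgeR adjusted p = 0.127). Dpp8, at 0.32 ± 0.121, missed the threshold (edgeR adjusted p = 0.0585) and passed without Prepl WT replicate 4 or without PWS-IC WT replicate 3 (edgeR adjusted p = 0.0443 and 0.0170). Tpp2, at -0.21 ± 0.0798, missed it too (edgeR adjusted p = 0.0548). Tpp2 passed with upper-quartile factors and with a minimum count of 20 (edgeR adjusted p = 0.0290 and 0.0415). In one fit of all 16 libraries both Dpp8 and Tpp2 passed (edgeR adjusted p = 0.0337 and 0.0456). Prepl had a 95% interval on the fold of 0.841 to 1.18 between the WT groups. With sex as a term both calls held, at -0.50 for Dpp9 and 0.51 for Lypla2 (edgeR adjusted p = 0.0122 for Dpp9 and 0.000214 for Lypla2). The labels name no colony or preparation for either WT group, so what sets these groups apart cannot be told. Blood markers summed to 660 to 1145 CPM in the Prepl WT and 1796 to 3970 CPM in the PWS-IC WT. Oligodendrocyte markers summed to 97.9 to 164 CPM and 65.3 to 72.1 CPM, and neuronal markers to 3433 to 3608 CPM and 3033 to 3270 CPM. Sums of astrocyte, microglial, endothelial, choroid plexus and meningeal fibroblast markers overlapped between the WT groups. The part of tissue make-up in the gene differences above was not tested.

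The pattern of Prepl over the 16 libraries had no close match. Among 10148 genes whose mean log2 CPM was 3 or more, the nearest by root-mean-square distance of centred log2 CPM was Tmem178, at 1.22, followed by Asb3 at 1.28 and Eif2s3x at 1.31, where the SD of Prepl itself was 1.77. Prep, which varied less (SD 0.225), was nearest to Sec61a1, Foxq1 and Ostf1, at 0.136 to 0.141.

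Beyond the 9 genes, 98 genes of related families or next to Prepl were listed, of which 91 were tested in each model. In the Prepl knockout 0 were called by edgeR's quasi-likelihood test, against 0.262% of all genes tested, and DESeq2 and limma voom called 0. In edgeR's test 8 had an unadjusted p under 0.05, against 9.43% of all genes. Of the 9 tested genes in the list of prolyl and dipeptidyl peptidases and their relatives, 8 were below 0, with a median of -0.09. Over all genes the median was 0.00, and 50.1% were above 0. Between the WT groups 1 of these 9 was above 0. The largest change in the knockout belonged to Prcp, a lysosomal prolylcarboxypeptidase that trims peptides such as alpha-MSH and angiotensin. Prcp had 0.974, 0.992, 2.38 and 4.17 CPM in knockouts, against 1.99, 8.78, 8.79 and 6.67 CPM in WT. WT replicate 1 fell among the knockouts, and Prcp missed the threshold at -1.60 ± 0.405 (SE, log2; edgeR's quasi-likelihood test, adjusted p = 0.115); without WT replicate 1 it passed (edgeR adjusted p = 0.00308), as it did with no filter on low counts (edgeR adjusted p = 6.40e-05). Prcp was not called in the other 8 alternatives, sex as a term among them, nor in the other 7 fits that left out 1 library. It had 5 to 21 reads per knockout library. Dpp4, a cell-surface dipeptidyl peptidase, was next at -1.04 ± 0.397, at no more than 2.93 CPM in any library of that comparison.

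Of 6 other depalmitoylating enzymes the smallest p belonged to Abhd10, at -0.41 ± 0.177 (SE, log2; edgeR's quasi-likelihood test, adjusted p = 0.476). The 20 tested palmitoyltransferases, which add the acyl group that thioesterases remove, ranged from -0.19 to 0.36 with a median of 0.02, and 0 had an unadjusted p under 0.05. The 28 alpha/beta and lipid serine hydrolases had a median of 0.02, the 16 peptide-degrading enzymes -0.06, and the 12 ceroid lipofuscinosis genes -0.01. Among the peptide-degrading enzymes, insulin-degrading enzyme, Ide, had the smallest p, at -0.26 ± 0.109 (edgeR adjusted p = 0.461). Other genes with a small p in their list had log2 fold changes of 0.12 for Abhd17b, 0.36 for Zdhhc12 and 0.22 for Zdhhc8 among the palmitate enzymes. The values were -0.26 for Abhd14a, -0.30 for Abhd13, -0.30 for the aminopeptidase gene Lap3, 0.16 for progranulin, Grn, and 0.24 for cathepsin F, Ctsf. None of them was called, and their unadjusted p ran from 0.0228 for Abhd14a to 0.125 for Abhd17b (edgeR's quasi-likelihood test).

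**Figure D4:**
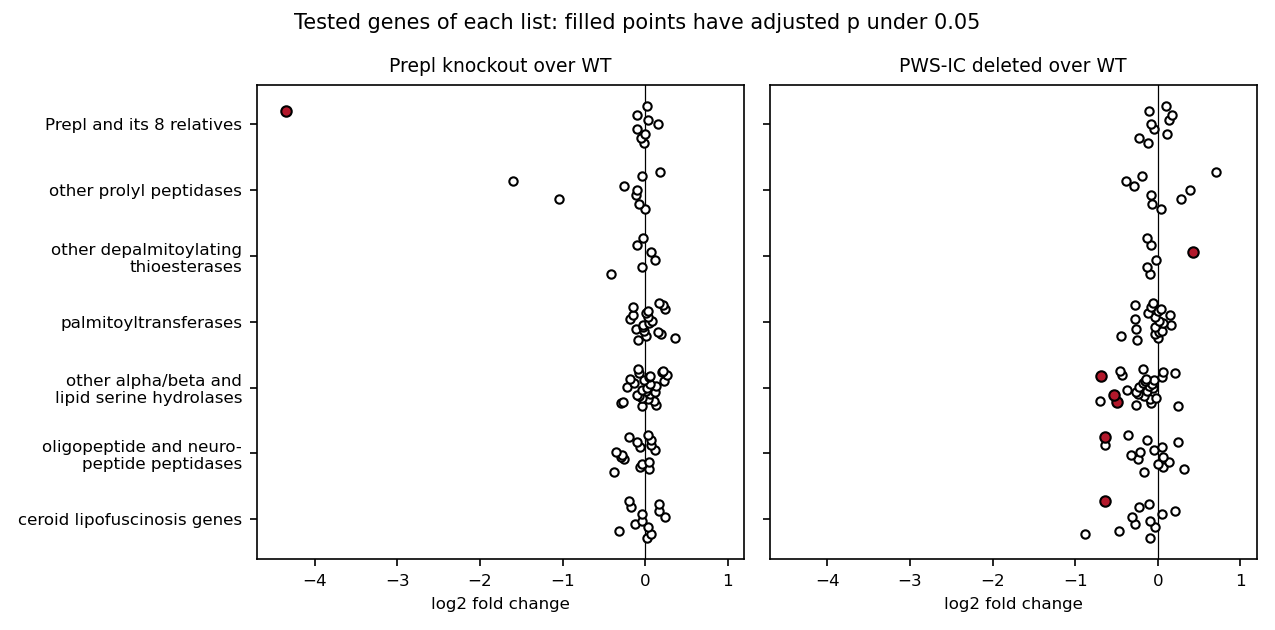
Log2 fold change (horizontal axes) of each tested gene in the 9-gene set and in 6 lists of related families, in the Prepl knockout over WT and the PWS-IC deletion over WT; filled points have an adjusted p under 0.05. In the knockout panel the filled point is Prepl at -4.34; in the PWS-IC panel Abhd17c, Pafah1b3, Abhd4, Abhd14a and Tpp1 are filled, the last in 2 lists.

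In the PWS-IC deleted brain 5 of the 91 related genes were called, 1 higher and 4 lower, against 2.96% of all genes called higher and 1.55% lower. Limma voom called the same 5 genes; DESeq2 called them and also Blmh and Pgpep1, a pair of peptide-degrading enzymes named after their values were seen, which missed the threshold in edgeR's quasi-likelihood test at 0.32 ± 0.0931 and -0.64 ± 0.190 (SE, log2; adjusted p = 0.0586 for Blmh and 0.0577 for Pgpep1). Abhd17c, which encodes a depalmitoylating enzyme of membrane-bound and synaptic proteins, was higher. It had 223.0, 235.0, 237.2 and 211.5 CPM in deleted brains, against 157.7, 172.8, 174.2 and 174.4 CPM in WT, a rise of 0.42 ± 0.0810 on the log2 scale (SE; edgeR's quasi-likelihood test, adjusted p = 0.00430). The groups did not overlap, and Abhd17c was the 1 called gene among 6 depalmitoylating enzymes outside the 9 genes.

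The genes that fell were Pafah1b3, Tpp1, Abhd4 and Abhd14a. Pafah1b3, a catalytic subunit of the brain platelet-activating factor acetylhydrolase, had 143.6, 151.8, 127.7 and 121.5 CPM in deleted brains, against 204.2, 248.0, 221.9 and 209.6 CPM in WT (log2 -0.69 ± 0.0976 SE; edgeR's quasi-likelihood test, adjusted p = 0.000324). Tpp1, the lysosomal tripeptidyl peptidase whose loss causes a late infantile ceroid lipofuscinosis, had 21.2, 19.8, 21.6 and 21.9 CPM in deleted brains, against 29.2, 39.0, 33.3 and 30.8 CPM in WT (log2 -0.64 ± 0.134 SE, edgeR adjusted p = 0.00824). Neither gene overlapped between the groups. Abhd4, a lysophospholipase of N-acyl phospholipids, changed by -0.53 ± 0.121 and the hydrolase gene Abhd14a by -0.49 ± 0.131 (SE, log2; edgeR adjusted p = 0.0139 for Abhd4 and 0.0360 for Abhd14a). Leaving out any 1 library other than deleted replicate 3 ended the call of Abhd14a (edgeR adjusted p = 0.0532 to 0.0836), and leaving out deleted replicate 1 ended that of Abhd4 (edgeR adjusted p = 0.0575). In the difference of the 2 mutant effects Pafah1b3 was called, at 0.74 ± 0.137 (SE, log2; edgeR adjusted p = 0.00382). Abhd17c, Abhd4 and Abhd14a were not (edgeR adjusted p = 0.136, 0.203 and 0.637), nor was Tpp1. In the Prepl knockout Abhd14a had 26.0 to 31.5 CPM, against 33.7 to 37.3 CPM in WT, and was not called.

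The 28 alpha/beta and lipid hydrolases had a median of -0.16 in the deletion, with 4 above 0. The 12 ceroid lipofuscinosis genes had a median of -0.16 as well, with 2 above 0 and Tpp1 the 1 called. Over all genes the median was -0.01, and 47.6% were above 0. The 5 blood markers summed to 1203 to 1629 CPM in deleted brains and 1796 to 3970 CPM in WT. The 4 microglial markers summed to 35.8 to 58.5 CPM in deleted brains and 43.9 to 69.7 CPM in WT. Choroid plexus markers summed to 394 to 1696 CPM in deleted brains and 1393 to 2150 CPM in WT, and those of meningeal fibroblasts to 291 to 314 CPM in deleted brains and 377 to 630 CPM in WT. No marker of these 4 cell types was at 0, and their part in the calls was not tested. Neither the 9 tested genes of the prolyl and dipeptidyl peptidase list nor the 20 palmitoyltransferases held a called gene (edgeR's quasi-likelihood test). In edgeR's test 1 and 3 of them had an unadjusted p under 0.05, against 18.2% of all genes. DESeq2 and limma voom called 0 in these lists. The smallest p among these belonged to Xpnpep3, at 0.71 ± 0.296, and Pepd, at -0.29 ± 0.171, both proline peptidases, and to Zdhhc13, at -0.45 ± 0.196, and Zdhhc8, at -0.27 ± 0.126 (SE, log2). Without deleted replicate 3 Zdhhc13 passed, at -0.69 (edgeR adjusted p = 0.0376). Camkmt had 0.962, 0.912, 2.01 and 1.90 CPM in deleted brains, against 2.90, 2.46, 3.09 and 3.62 CPM in WT. It did not overlap between the groups but was not called (log2 -1.04 ± 0.381 SE; edgeR's quasi-likelihood test, adjusted p = 0.137).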

How the data were processed

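The authors deposited whole-number counts of reads per gene symbol for each library. Reads were processed with HISAT2 and HTSeq on mm10, per the submitters' processing notes; for versions, annotation and strand setting: not given in the sources used here. The 5 rows that name no gene were left out. Of the tabled reads 38.1% to 46.4% were in genes. The row for reads matching no gene held 11.4% to 20.1%, and the remainder sat in the other rows left out. Replicate libraries differed by more than sampling noise (chi-square per degree of freedom 2.52 or more).

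Counts were tested with edgeR 4.0.16 in R 4.3.3: filterByExpr (minimum count 10, minimum total 15), TMM factors, quasi-likelihood F-tests and Benjamini-Hochberg adjustment, with each model fitted on its own 8 libraries and the difference on all 16. The SE is the absolute log2 fold change over the square root of F. Scripts were tested on simulated data. Alternatives were RLE and upper-quartile factors, no filter, a minimum count of 20, DESeq2 1.42.0 and limma 3.58.1 voom. Further ones were a replicate block, sex as a term, one fit of 16 and leaving out each library. The WT comparison was added after seeing the data.

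The 9 genes and all lists were chosen with earlier results of these data known. Besides them the text names called list genes (up to 4 per list and direction), or the 2 with the smallest p where none was called, Slc3a1 and Camkmt, and the 3 genes nearest in pattern to Prepl and to Prep.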

Additional observations from a re-analysis of the deposited data

Results flagged for a closer look

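Prepl was the 1 gene of the 9 called in the contrast of the 2 models. Its contrast of -4.24 on the log2 scale (-4.2362, Prepl knockout over WT minus PWS-IC deleted over WT) sets the targeted gene of one model against the other, in which it was not called. No library stood apart from the other 3 of its group in any of the 36 groups examined, 9 genes in 4 groups each (Dixon's test at the 95% level, which chance alone fails in about 1 group of 20).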

How the results depend on the processing

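Over the alternatives and leaving out each library in turn, the number of the 9 genes called stayed at 1 in the Prepl knockout, 0 in the PWS-IC deletion and 1 in the difference; between the WT groups it was 2 or 3, and 4 in one fit of all 16 libraries. Counts over all genes moved more. The Prepl knockout count of 36 was 156 with no filter on low counts, 6 with sex as a term, 18 in one fit of 16 and 12 to 103 leaving out a library (103 without WT replicate 1, 12 and 22 without WT replicates 2 and 3, and 23, 16 and 17 without knockout replicates 1, 2 and 4). The PWS-IC count of 616 was 945 with no filter, 1119 with sex as a term, 999 in one fit of 16 and 362 to 653 leaving out a library (362 without deleted replicate 1, 394 without WT replicate 3). The count of 112 for the difference was 222 with no filter, 169 with DESeq2, 235 with sex as a term and 67 to 134 leaving out a library (67 and 73 without Prepl WT replicates 2 and 3, 74 without knockout replicate 3). The cause was not tested.

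Small uncalled changes turned sign. With sex as a term Dpp9 was at 0.22 and Ppt1 at -0.18 in the Prepl knockout, Apeh at -0.017 in the difference, and Prepl at 0.024 between the WT groups. Leaving out 1 library gave in the knockout -0.085 to 0.014 for Dpp8, -0.073 to 0.060 for Dpp9, -0.0053 to 0.048 for Tpp2, -0.067 to 0.038 for Apeh and -0.025 to 0.11 for Ppt1. It gave -0.19 to 0.047 for Lypla1 in the PWS-IC deletion, -0.00088 to 0.20 for Apeh and -0.15 to 0.095 for Lypla1 in the difference, and -0.068 to 0.068 for Prepl between the WT groups.

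With the replicate block the counts were 35 in the Prepl knockout, 989 in the PWS-IC deletion and 96 in the difference, and Dpp9 in the knockout was at 0.0030. Libraries of the same number correlated at -0.10 to 0.05 in the Prepl model and -0.01 to 0.30 in the PWS-IC model. The labels do not pair libraries by number, and the main fits did not either. Deleted replicates 2 and 3 correlated best with the WT library of their own number, at 0.289 and 0.298, and deleted replicates 1 and 4 did not. In the Prepl model only knockout replicate 4 did so. In both PWS-IC groups replicates 1 and 2 were male and replicates 3 and 4 female, so number and sex go together there. Depth limits Apeh and Lypla1 most among the relatives, at 25 to 119 reads per library.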
